A study of Mus musculus with 4 samples.

Results

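The cardiac myosin genes code for the motor and its helpers in the thick filament of heart muscle. A myosin molecule has a pair of heavy chains, which carry the motor, and each heavy chain binds an essential and a regulatory light chain. Rodent ventricle normally uses the fast heavy chain of Myh6 with the ventricular light chains of Myl3 and Myl2. The slow heavy chain of Myh7 and the atrial light chains of Myl4 and Myl7 belong to fetal ventricle or to atria, and Myh7 is a classic marker of pressure overload. Mybpc3 codes for cardiac myosin-binding protein C, which links myosin to titin and to actin. Members were chosen by name: the probe sets whose only gene in the platform annotation was one of these 7 genes. There were 11 such probe sets of 22690 in the table, for 7 of 12393 genes with a probe set of their own: 3 for Myl3, 2 each for Myh6 and Myl4, and 1 each for Myh7, Myl2, Myl7 and Mybpc3. Another 2 probe sets were annotated to both Myh7 and Myh6 and are described apart.

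Heart RNA pooled from several mice per group was hybridised, with biotin label, to 4 arrays, 1 per group; for the IL-18 null pools the labels name the left ventricle. The IL-18 null banded pool came from 6 mice lacking the cytokine interleukin-18, on a C57BL/6 background, with the aorta narrowed by transaortic constriction for 1 week so that the ventricle pumped against raised pressure. The IL-18 null sham pool came from 5 sham-operated mice. The wild-type banded pool and the wild-type sham pool came from 5 to 6 mice each per the series design. For the wild-type pools the sources used here do not give the strain, the chamber or the banding time, and for no pool the age or sex of the mice. The series asks what IL-18 does to gene expression in this hypertrophy. With 1 pooled array per group no difference between 2 arrays has a replicate check, an error or a p-value, and the spread between mice is not visible. Values are the authors' GCRMA intensities on a linear scale. Differences are log2 differences of intensity after values under 64 (log2 6, called the floor here) were set to 64, and a difference with 1 array below the floor is a bound. A probe set was counted as higher or lower at 2-fold or more, and was called measured when at least 1 of the arrays compared reached the floor.

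The wild-type arrays stood apart from the IL-18 null arrays in some controls for RNA quality. Gapdh, a glycolytic enzyme probed at 3 positions, had 3′, middle and 5′ intensities of 12239, 3885 and 597.2 in IL-18 null banded and of 10744, 1620 and 307.4 in IL-18 null sham. The same probe sets had 15322, 17063 and 13237 in wild-type banded and 2045, 83.6 and 65.8 in wild-type sham. The log2 gap between the 3′ and middle probe sets of Gapdh was 1.66 in IL-18 null banded, 2.73 in IL-18 null sham, -0.16 in wild-type banded and 4.61 in wild-type sham. For the actin gene Actb it was 4.57, 4.69, 2.01 and 4.88 in the same order. Wild-type banded had the smallest of these gaps for both genes. The gap between 3′ and 5′ was 4.36, 5.13, 0.21 and 4.96 for Gapdh and 2.92, 3.04, 1.92 and 5.81 for Actb, in the same order. Wild-type banded was again the lowest for both, while wild-type sham was the highest for Actb and lay between the IL-18 null arrays for Gapdh. All 8 cardiomyocyte markers listed (Actc1, Tnnt2, Tnni3, Tnnc1, Ryr2, Pln, Tcap and Csrp3) were above the floor on every array, with summed intensities of 132419 in IL-18 null banded, 139508 in IL-18 null sham, 144137 in wild-type banded and 99453 in wild-type sham. In bulk RNA, fewer cells of a type and less RNA per cell cannot be told apart.

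Myh7, the slow heavy chain (chr14:54970684-54994626, GRCm38.p6), was the 1 of the 7 genes with a banded signal at least 2-fold above sham in both genotypes. Its probe set had an intensity of 4725 in IL-18 null banded and 473.5 in IL-18 null sham. It had 1156 in wild-type banded and 309.5 in wild-type sham. Both banded arrays thus lay above both sham arrays, and IL-18 null banded was the highest of the 4. Banded exceeded sham by 3.32 (log2), or 9.98-fold, in IL-18 null, and by 1.90, or 3.74-fold, in wild type. In IL-18 null, 18 of 7385 measured probe sets had a larger positive banding difference than Myh7, against 1029 of 7880 in wild type. The 3′ control probe sets had wild-type banding differences of 2.91 for Gapdh and 3.95 for Actb, and 0.19 each in IL-18 null. Between the banded arrays, IL-18 null exceeded wild type by 2.03, or 4.09-fold. That comparison does not use the wild-type sham array, but it does use wild-type banded. Wild-type banded had the smallest gaps between 3′ and middle controls of Gapdh and Actb. The part of these array differences in the Myh7 values was not tested. Between the sham arrays IL-18 null exceeded wild type by 0.61, or 1.53-fold, short of 2-fold. The banding difference in IL-18 null was larger than that in wild type by 1.42 (log2), a difference without a test.

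Myh6, the fast heavy chain of adult rodent ventricle (chr14:54941921-54968017), lies 2666 bases from Myh7 in the same cluster. Its brighter probe set, 1448826_at, had intensities of 36866 in IL-18 null banded, 33515 in IL-18 null sham, 39738 in wild-type banded and 35859 in wild-type sham. The 4 arrays lay close together. The banding difference was 0.14 in IL-18 null and 0.15 in wild type, and in wild type its sign depended on the scaling (-0.19 after quantile normalization). At most 2 probe sets on any array were brighter than this one, and saturation at the top of the scale was not tested.

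The promoters of these neighbouring genes are shown because the Myh7 probe set and the brighter Myh6 probe set behaved differently with banding. The second Myh6 probe set, described below, was higher with banding in wild type. The 300 bases run from 250 before to 50 after an annotated start on the minus strand of GRCm38.p6, from RefSeq, at chr14:54994577-54994876 for Myh7 and chr14:54966558-54966857 for Myh6. Capitals mark GGAATG, which is the M-CAT element bound by TEAD factors. They also mark TATAAA, the core promoter box near many start sites. Each motif was searched on both strands. The motifs do not overlap.
Myh7: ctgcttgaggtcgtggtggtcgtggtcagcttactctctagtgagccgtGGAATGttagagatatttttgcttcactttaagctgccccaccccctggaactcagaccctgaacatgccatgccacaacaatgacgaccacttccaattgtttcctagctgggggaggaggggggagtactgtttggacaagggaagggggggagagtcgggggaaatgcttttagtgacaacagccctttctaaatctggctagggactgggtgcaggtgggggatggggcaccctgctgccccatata
Myh6: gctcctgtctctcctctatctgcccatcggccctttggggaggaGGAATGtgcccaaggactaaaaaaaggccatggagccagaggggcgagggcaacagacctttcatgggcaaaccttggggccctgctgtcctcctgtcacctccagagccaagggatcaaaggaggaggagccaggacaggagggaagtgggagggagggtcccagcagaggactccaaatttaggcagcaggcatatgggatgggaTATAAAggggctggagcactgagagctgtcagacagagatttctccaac
The Myh7 window shown held GGAATG from base 50 and no TATAAA, and the Myh6 window held GGAATG from base 45 and TATAAA from base 252. Of the 7 genes, 4 had GGAATG in at least 1 of 9 windows (Myh7, Myh6, Myl3 and Myl7) and 2 had TATAAA (Myh6 and Myl2). Over all 32851 windows of this length in the table, 14.7% held GGAATG and 13.6% held TATAAA. A second annotated start of Myh7, with its window at chr14:54994500-54994799, held no GGAATG, so the presence of these letters in Myh7 depends on the start taken.

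The heavy chain genes are also hosts of microRNAs, which repress target messages through their seed. They are shown because a higher Myh7 signal concerns the transcript that spans one of them, while the array values used here do not measure the mature microRNAs. The seed, bases 2 to 8, is in capitals, and both sequences are from RefSeq on GRCm38.p6, minus strand.
mmu-miR-208a-3p: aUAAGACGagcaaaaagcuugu
mmu-miR-208b-3p: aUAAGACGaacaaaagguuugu
The miR-208a sequence lies at chr14:54949072-54949093, within Myh6, and the miR-208b sequence at chr14:54975710-54975731, within Myh7. They share 1 seed and differ at 3 of 22 bases.

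The second Myh6 probe set gave another picture. Probe set 1417729_at had intensities of 17.8 in IL-18 null banded, 19 in IL-18 null sham, 1449 in wild-type banded and 36.4 in wild-type sham. It was above the floor on wild-type banded alone, where it was at least 22.6-fold higher than in wild-type sham. IL-18 null banded was at least 22.6-fold lower than wild-type banded. One of the probe sets shared by Myh7 and Myh6, 1448827_s_at, did the same, with 6.9 in IL-18 null banded, 6.8 in IL-18 null sham, 1032 in wild-type banded and 7.8 in wild-type sham. The other, 1448554_s_at, was bright on all arrays, with 24807 in IL-18 null banded, 28920 in IL-18 null sham, 34679 in wild-type banded and 11960 in wild-type sham. Its banding difference was -0.22 in IL-18 null and 1.54 in wild type. Wild-type banded was also the array with the smallest gap between 3′ and middle signal in Gapdh and Actb, and the part of that gap in these probe sets was not tested. Probe sets annotated to Myh6 thus differed in the size of their differences, and the Myh7 and Myh6 transcripts are similar enough that probes may be shared.

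**Figure D1:**
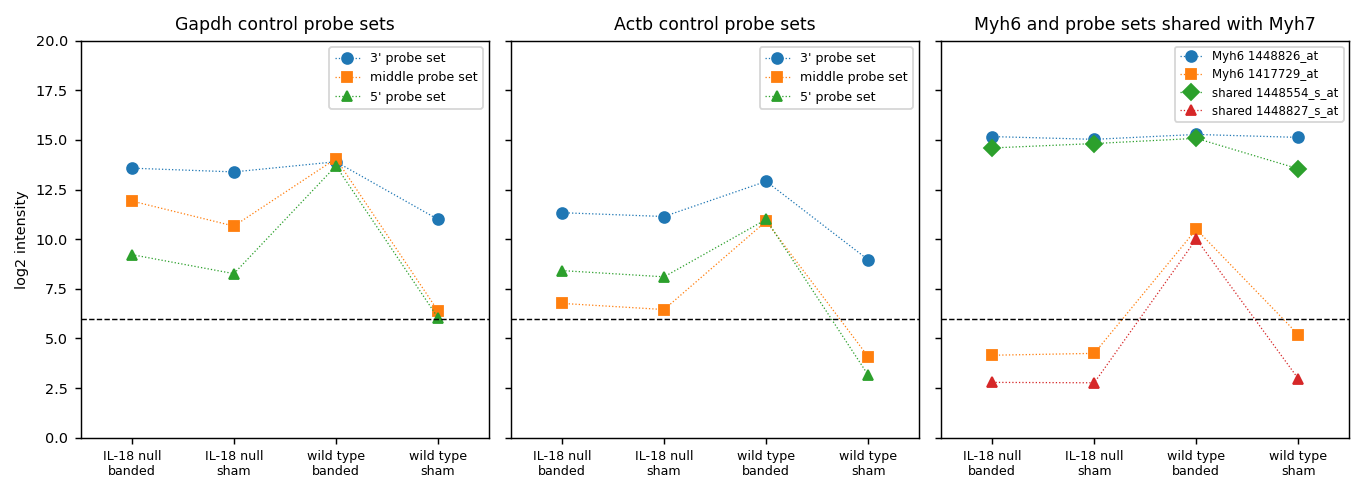
Log2 intensity (vertical axis) on the 4 arrays of the 3′, middle and 5′ control probe sets of Gapdh and Actb, and of the 2 Myh6 probe sets with the 2 shared by Myh7 and Myh6; the dashed line is the floor at log2 6. Wild-type banded has the highest middle and 5′ control values, and 1417729_at and 1448827_s_at are above the floor on that array alone.

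The ventricular light chains showed small differences in most probe sets. Myl2, the regulatory light chain of the ventricle (chr5:122092724-122113473), had intensities of 22591 in IL-18 null banded, 23031 in IL-18 null sham, 25015 in wild-type banded and 23963 in wild-type sham. Its banding difference was -0.03 in IL-18 null and 0.06 in wild type, and the sign in wild type changed with the scaling (-0.04 after quantile normalization). Myl2 differed by less than 2-fold in every comparison.

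Myl3, the essential light chain of the ventricle (chr9:110763678-110769802), had 3 probe sets, and 1 of them differed from the others. The brightest, 1427768_s_at, had 33493 in IL-18 null banded, 30277 in IL-18 null sham, 31570 in wild-type banded and 30277 in wild-type sham. The sham arrays carried the same deposited value here. Of 363 probe sets with at least 4096 units on all 4 arrays, this was the 1 with equal values in the sham arrays. Probe set 1427769_x_at had 5238, 5694, 5902 and 5780 in IL-18 null banded, IL-18 null sham, wild-type banded and wild-type sham. Probe set 1428266_at had 23283 in IL-18 null banded, 23939 in IL-18 null sham, 27537 in wild-type banded and 5110 in wild-type sham. Wild-type sham alone was low for 1428266_at, so banded exceeded sham by 2.43 in wild type and IL-18 null exceeded wild type by 2.23 among sham arrays. Both comparisons subtract the wild-type sham array. The other 2 Myl3 probe sets differed between the wild-type arrays by 0.06 and 0.03, so Myl3 as a gene has no settled difference there.

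The atrial light chains were highest in wild-type banded. Myl7, the atrial regulatory light chain (chr11:5896637-5898782), had intensities of 856 in IL-18 null banded, 802.8 in IL-18 null sham, 1627 in wild-type banded and 831.7 in wild-type sham. The 3 other arrays lay close together below wild-type banded. Banded exceeded sham by 0.09 in IL-18 null and by 0.97 in wild type, and IL-18 null was below wild type by a difference of -0.93 among banded arrays. These last 2 values fell just short of 2-fold and passed it after cyclic loess normalization (1.14 and -1.11).

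Myl4, the atrial and embryonic essential light chain (chr11:104546017-104587215), had 770.8 in IL-18 null banded, 660.6 in IL-18 null sham, 1523 in wild-type banded and 253.3 in wild-type sham for probe set 1422580_at. The wild-type arrays were the highest and the lowest, with the IL-18 null arrays between them. Banded exceeded sham by 0.22 in IL-18 null. In the wild-type pair the excess was 2.59, or 6.01-fold. IL-18 null exceeded wild type by 1.38 among sham arrays, and the difference was -0.98 among banded arrays, which passed 2-fold under the other scalings (-1.03 to -1.17). The second Myl4 probe set, 1457126_at, was below the floor on all 4 arrays (9.9, 9.9, 8.4 and 18.4 in IL-18 null banded, IL-18 null sham, wild-type banded and wild-type sham) and gave no difference.

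Of 9 atrial markers on the array, 3 were above the floor: Nppa, atrial natriuretic peptide, Sln, sarcolipin, and Kcna5, a potassium channel. Gja5, Bmp10, Dkk3, Nr2f1, Nr2f2 and Stard10 were below it on all arrays. The summed intensity of the 9 was 13786 in IL-18 null banded, 2762 in IL-18 null sham, 8209 in wild-type banded and 3446 in wild-type sham, most of it from Nppa, which ventricle under load also makes. Sln had 470.4, 301.5, 768.7 and 466.6 in the same order, highest in wild-type banded as were Myl7 and Myl4. Kcna5 had 114.1 in IL-18 null banded, 70.4 in IL-18 null sham, 107.8 in wild-type banded and 132.9 in wild-type sham, highest in wild-type sham. The measured atrial markers thus did not share 1 order of the arrays, and their part in the values of the atrial light chains was not tested.

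Mybpc3, cardiac myosin-binding protein C (chr2:91118114-91136516), had the largest difference between the wild-type arrays among the main probe sets of the 7 genes. Its intensity was 11767 in IL-18 null banded and 10371 in IL-18 null sham. It was 16556 in wild-type banded and 948.5 in wild-type sham. The wild-type sham value stood far below the 3 others, which were within 2-fold of each other. Banded exceeded sham by 0.18, or 1.13-fold, in IL-18 null. In the wild-type pair the excess was 4.13, or 17.5-fold. IL-18 null exceeded wild type by 3.45, or 10.9-fold, among sham arrays, and the difference was -0.49 among banded arrays. The wild-type banding and sham genotype differences share the wild-type sham array. On that array the 3′ probe set of Gapdh was also low, with banding differences of 0.19 in IL-18 null and 2.91 in wild type, and that of Actb gave 0.19 and 3.95. Their part in the Mybpc3 difference was not tested.

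**Figure D2:**
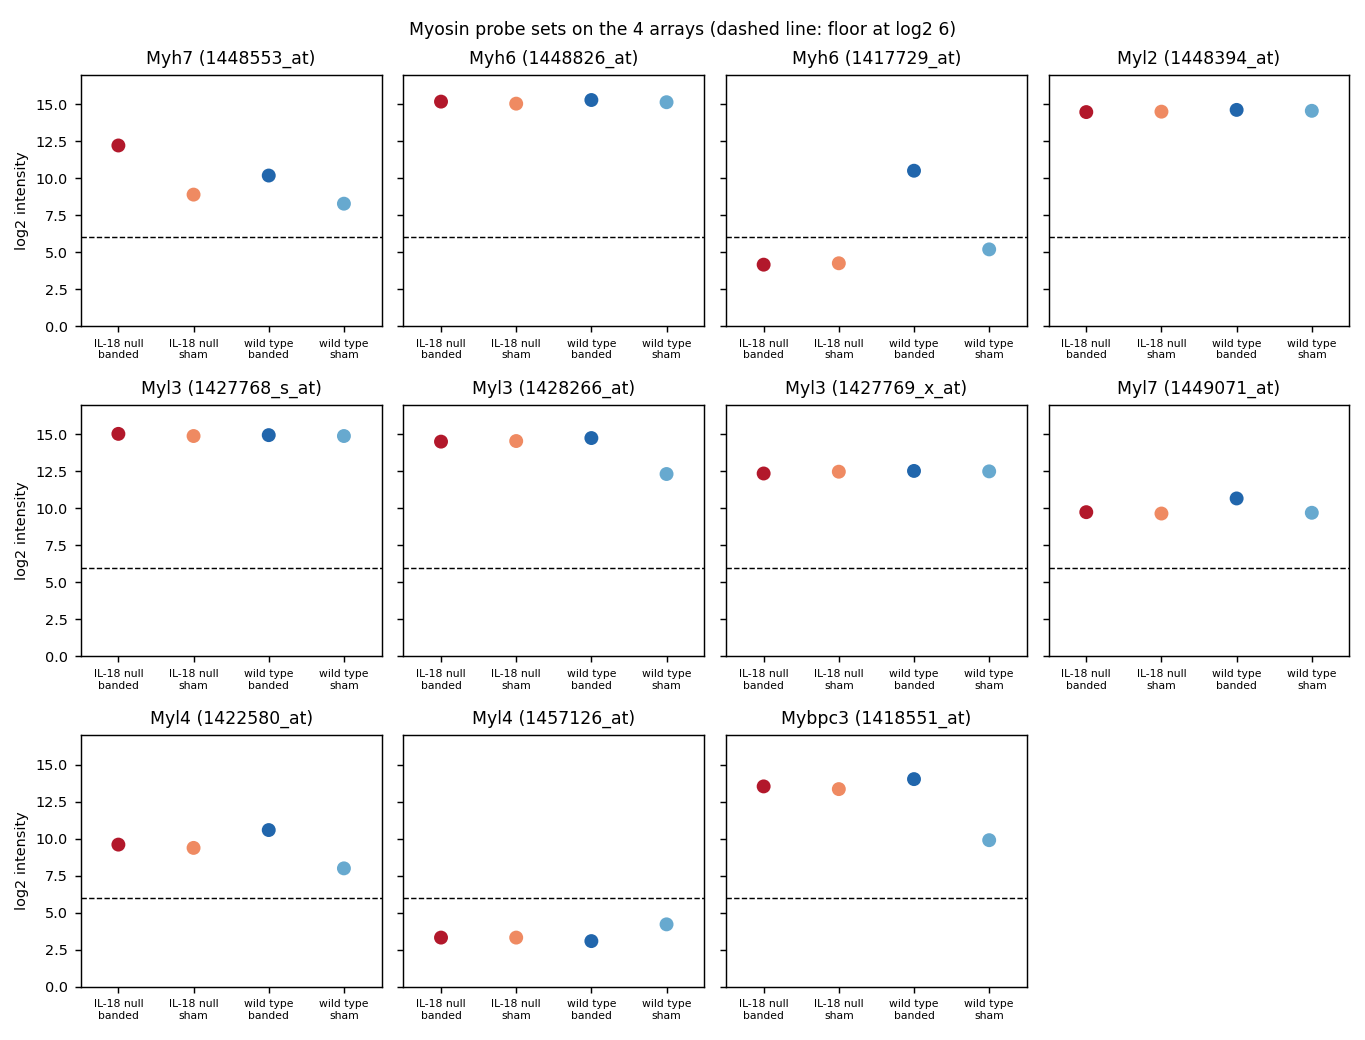
Log2 intensity (vertical axis) of each of the 11 probe sets on the 4 arrays, 1 point per array, with the floor as a dashed line. Myh7 is highest in IL-18 null banded, and Mybpc3 and Myl3 1428266_at are low in wild-type sham alone.

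Counted over the probe sets, 1 of 9 measured myosin probe sets was at least 2-fold higher with banding in IL-18 null, that of Myh7, where 6.54% of all 7385 measured probe sets were. None was at least 2-fold lower there, where 4.16% of all were. In wild type 5 of 10 were higher (Myh7, Myh6 1417729_at, Myl3 1428266_at, Myl4 1422580_at and Mybpc3), against 25.1% of 7880, and 0 were lower, against 11.4%. One of these 10, Myh6 1417729_at, was measured only through wild-type banded and had to differ. Between banded arrays, 1 of 10 was higher in IL-18 null (Myh7), against 5.01% of 7697 probe sets, and 1 was lower (Myh6 1417729_at), against 10.8%. That lower probe set was again measured through wild-type banded alone and could only come out lower in IL-18 null. Between sham arrays, 3 of 9 were higher in IL-18 null (Myl3 1428266_at, Myl4 1422580_at and Mybpc3), against 18.6% of 7453, and 0 were lower, against 6.00%. For the difference of the banding responses, IL-18 null minus wild type, 1 of 10 was at or above 1 (Myh7), against 18.8% of 8062, and 4 were at or below -1, against 24.9%. Those 4 were the other probe sets named for wild-type banding. Among them Myh6 1417729_at, above the floor on wild-type banded alone, could only come out negative. The median banding difference of the measured myosin probe sets was 0.14 in IL-18 null and 1.43 in wild type, against 0.07 and -0.02 over all measured probe sets. The wild-type median includes the bound of Myh6 1417729_at, which the IL-18 null median lacks. Over the main probe sets of the 7 genes, the same in both pairs, the medians were 0.15 in IL-18 null and 0.97 in wild type.

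The backgrounds depended on the scaling. With banding in IL-18 null, 483 probe sets were higher and 307 lower with the deposited scaling, and 382 and 366 after quantile normalization. In wild type the counts were 1977 and 896 with the deposited scaling. Quantile normalization gave 1591 and 1786, and cyclic loess gave 2238 and 582. Between banded arrays they were 386 and 833, and 263 and 1013 after cyclic loess. Between sham arrays they were 1388 and 447, and 1184 and 924 after quantile normalization. For the difference of responses they were 1512 and 2009 with the deposited scaling. They became 2120 and 1735 with quantile normalization, and 1006 and 2336 with cyclic loess. Quantile normalization moved the median wild-type banding difference of all probe sets to -0.33, and cyclic loess moved it to 0.15. Set against that, Myh7 was at 1.57 and 2.07 and Mybpc3 at 3.94 and 4.25 in wild-type banding.

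**Figure D3:**
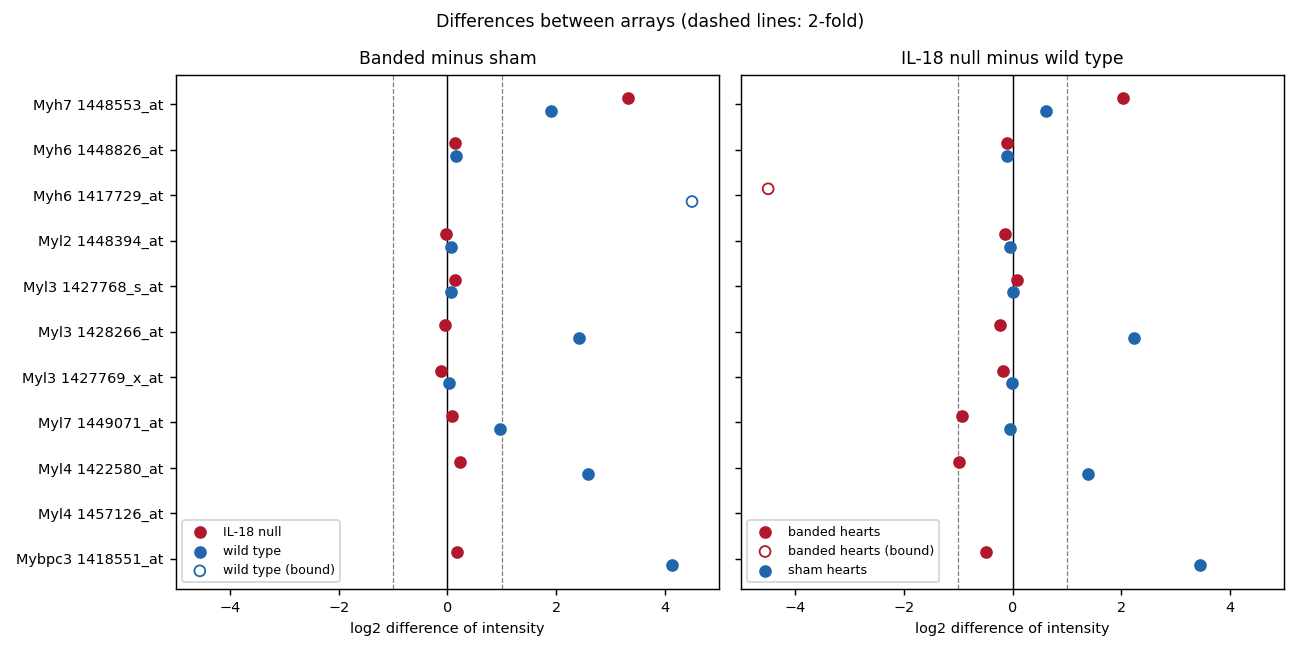
Log2 differences of intensity (horizontal axis) for each myosin probe set: banded minus sham in both genotypes on the left, and IL-18 null minus wild type in banded and sham hearts on the right. Dashed lines mark 2-fold and open circles are bounds; Myh7 is at 3.32 and 1.90 for banding, and the other points past 2-fold for banding are those of wild type.

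**Figure D4:**
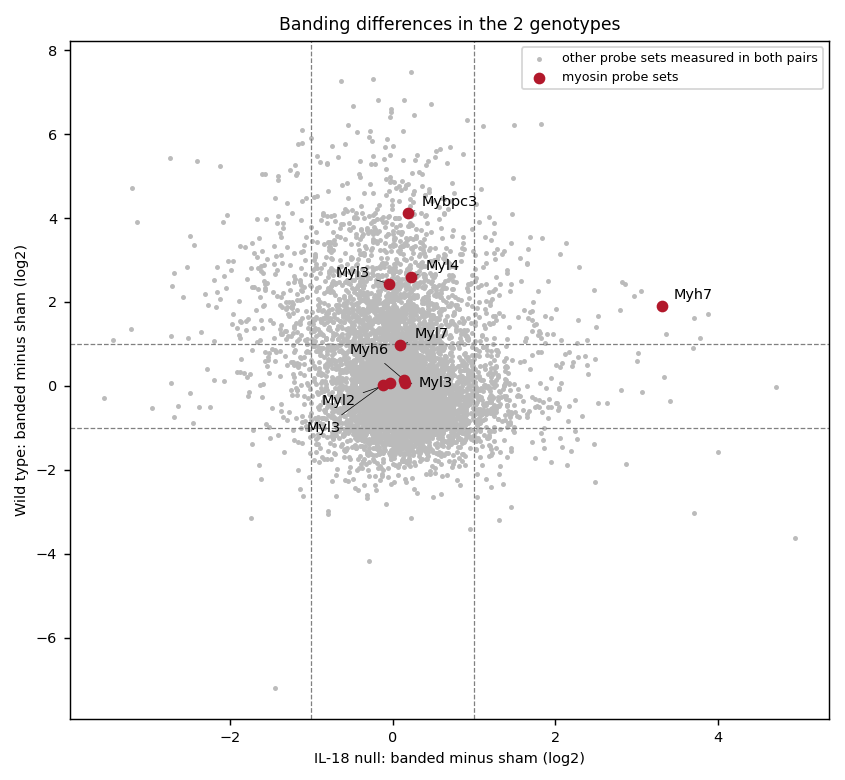
Banding difference (log2) in IL-18 null on the horizontal axis and in wild type on the vertical axis, for every probe set measured in both pairs, with the myosin probe sets in red. Myh7 is the red point past 2-fold on both axes, while Mybpc3, Myl4 and Myl3 1428266_at are past it on the vertical axis alone.

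The additive limma fit, with surgery and genotype as terms and 1 residual degree of freedom, called 0 of 8062 probe sets in either direction at an adjusted p under 0.05 for either term (0.00% called). At an unadjusted p under 0.05 it had 131 probe sets for banding and 15 for genotype. Myh7 was higher with banding by 2.61 ± 0.68 (log2, SE), in 2 of 2 banded arrays, with an unadjusted p of 0.0112 and an adjusted p of 1.00 over all probe sets (limma). It was the 1 of 10 tested myosin probe sets with an unadjusted p under 0.05 for banding, and 0 had one for genotype. With no filter on low values, limma's adjusted p for Myh7 was 0.024. This fit takes the difference between the banding responses as error.

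Most other heavy chain genes on the array were below the floor. Of 8 other heavy chain genes on the array 2 were measured, both non-muscle myosins, Myh9 and Myh14, and 0 passed 2-fold in any comparison of 2 arrays. Of 8 other light chain genes 5 were measured. Over all genes, by main probe set, 7.06% of 4828 were at least 2-fold higher and 2.57% at least 2-fold lower with banding in IL-18 null, against 22.2% and 12.9% of 5042 in wild type. Myl1, the essential light chain known from fast skeletal muscle, was the 1 at least 2-fold higher in the banded array of both genotypes. It had 3098 in IL-18 null banded, 1253 in IL-18 null sham, 1804 in wild-type banded and 539.8 in wild-type sham. Both banded arrays lay above both sham arrays, and IL-18 null sham stood above wild-type sham by 1.21. The banding differences of Myl1 were 1.31 in IL-18 null and 1.74 in wild type. All 9 skeletal muscle markers on the array, among them Tnnt3, Tnni2, Actn3 and Myh4, were below the floor on all arrays.

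Myl9, the regulatory light chain of smooth muscle, had 105.8 in IL-18 null banded, 101.1 in IL-18 null sham, 351.2 in wild-type banded and 8.6 in wild-type sham, so its wild-type banding difference of 2.46 is a bound. Myl6, the essential light chain of smooth and non-muscle myosin, differed by 0.29 in IL-18 null and by 1.05 in wild type. The median banding difference of the 5 light chains was 0.20 in IL-18 null and 1.05 in wild type, against 0.08 and -0.07 over all genes. In the wild-type pair Myl9 was measured through wild-type banded alone and could only come out higher, which limits the wild-type median. The kinase and phosphatase genes for light chains had 2 of 4 measured, Mylk and Ppp1cb, and 0 passed 2-fold between any 2 arrays.

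Thick-filament partners gave larger banding differences in the wild-type pair than in the IL-18 null pair, a contrast without a test. Of 5 measured, 0 passed 2-fold in IL-18 null, with a median of 0.04, against 0.08 over all genes. In wild type 4 of 5 passed it with banded higher, where 22.2% of all genes did, and 0 with banded lower. The wild-type median was 2.13, against -0.07 over all genes. Smyd1, a methyltransferase needed for myosin assembly, had 117 in IL-18 null banded, 30.7 in IL-18 null sham, 2967 in wild-type banded and 14.2 in wild-type sham. It was higher in wild-type banded than in wild-type sham by at least 5.53 (log2). In each genotype Smyd1 was measured through the banded array alone and could not come out lower, which limits the counts and medians above. Myom2, an M-line protein that binds myosin, had 1876, 1855, 5602 and 194.5 in IL-18 null banded, IL-18 null sham, wild-type banded and wild-type sham, and a wild-type banding difference of 4.85. Myom1, its relative, differed by 2.13 and Ttn, titin, by 1.05 in wild type. As for Mybpc3, wild-type sham was the lowest array for these 4 genes. Unlike Mybpc3, Smyd1 and Myom2 also stood more than 2-fold above the other arrays in wild-type banded. Between banded arrays, IL-18 null minus wild type was -4.66 for Smyd1 and -1.58 for Myom2, against -0.34 for Myom1 and -0.23 for Ttn. Smyd1 was below the floor in IL-18 null sham too. Wild-type banded also had the highest middle and 5′ controls of Gapdh and Actb, whose part here was not tested.

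Of 20 listed regulators of cardiac myosin genes on the array 11 were measured. In IL-18 null 0 were higher with banding and 2 of 11 lower, where 2.57% of all genes were lower, Purb (-1.31) and Sp3 (-1.07, with banded below the floor, a bound). Sp3 was measured in this pair through IL-18 null sham alone and could only come out lower, which limits this count. Purb binds single-stranded DNA and represses myosin genes, and Sp3 is a relative of Sp1. In wild type 4 of 11 were higher, where 22.2% of all genes were, and 0 lower. The 4 were Gata4 (at least 2.65), Mef2d (at least 1.94), Nkx2-5 (at least 1.88) and Purb (1.30), of which the first 3 are cardiac or muscle transcription factors. Wild-type sham was below the floor for these 3, so in that pair they were measured through wild-type banded alone. They could only come out higher there, which limits the count and the wild-type median. The median was -0.25 in IL-18 null and 0.72 in wild type, against 0.08 and -0.07 over all genes. Thra, the thyroid hormone receptor that drives Myh6, stayed between 75.8 and 79.4 on the 4 arrays. Tead1 and Tead4, which bind the M-CAT letters, and Thrb were below the floor on all arrays.

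**Figure D5:**
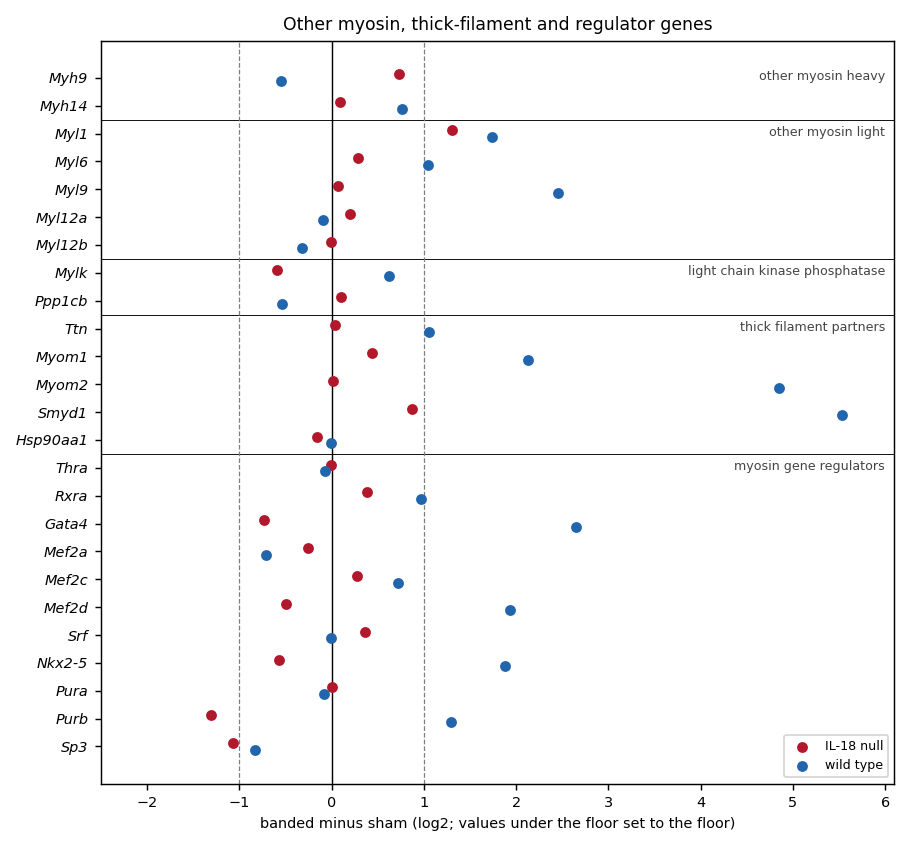
Banding differences (log2, horizontal axis) of measured genes of other myosins, light chain kinase and phosphatase, thick-filament partners and listed regulators, for IL-18 null (red) and wild type (blue). Myl1 is past 2-fold in both genotypes, and Purb is past it in opposite directions.

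Patterns were compared with 1614 other genes above the floor on all arrays and with a range over the arrays of at least 1 (log2). The genes with patterns most like Myh7 were found by the root mean square distance of log2 intensity, centred per gene, over the 4 arrays. They were Col1a1, a fibrillar collagen (distance 0.25), Icam1, an adhesion molecule (0.29), Postn, periostin (0.31), Rcan1, a calcineurin regulator (0.35), and Mt2, a metallothionein (0.39). Col1a1 had 1633 in IL-18 null banded, 225.9 in IL-18 null sham, 591 in wild-type banded and 109.7 in wild-type sham. Those nearest Myl7 were S1pr1, Slc25a23, Sirt3, Myl6 and Luzp1, with distances of 0.028 to 0.087. Those nearest Myl4 were Npepl1, Gpx4, Egfl7, Mfge8 and Aopep, with distances of 0.081 to 0.15. With 4 points per gene such likeness is a description.

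Markers of other cells differed with banding in part. The summed intensity of 6 fibroblast markers was 26387 in IL-18 null banded, 11162 in IL-18 null sham, 20756 in wild-type banded and 6997 in wild-type sham. In each genotype 4 of these 6 genes passed 2-fold with banded higher, where 7.06% of all genes did in IL-18 null and 22.2% in wild type. Pdgfra, a receptor on fibroblasts, went the other way, with banding differences of -0.84 in IL-18 null and -0.61 in wild type. The sum of 6 macrophage markers was 5829 in IL-18 null banded, 1554 in IL-18 null sham, 2431 in wild-type banded and 2128 in wild-type sham. In IL-18 null 3 of 5 measured passed 2-fold with banded higher, where 7.06% of all genes did. Their median was 1.06, against 0.08 over all genes. Cd68, short of 2-fold, was measured in this pair through IL-18 null banded alone. In wild type 2 of 5 measured passed 2-fold with banded higher, where 22.2% of all genes did. The median was -0.03, against -0.07 over all genes. C1qa, 1 of these 2, was measured through wild-type banded alone. The wild-type differences of Csf1r, Adgre1 and Cd14 were -0.67, -0.30 and -0.03. The sum of 5 endothelial markers was 1558 in IL-18 null banded, 2274 in IL-18 null sham, 2378 in wild-type banded and 1016 in wild-type sham. Their median banding difference was -0.73 in IL-18 null (0 of 3 measured at least 2-fold higher) and 0.76 in wild type (2 of 5, Pecam1 and Emcn). Over all genes the medians were 0.08 and -0.07 and the shares higher 7.06% and 22.2%, in the same order. Pecam1 and Tie1 were measured through wild-type banded alone, and the 0.76 is the bound of Tie1. The wild-type differences of the endothelial markers measured in both pairs were -0.06 for Cdh5, 0.43 for Kdr and 3.24 for Emcn. The part of these cells in the Myh7 values was not tested.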

How the data were processed

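Heart RNA was measured on 4 arrays, 1 pool per group, with groups taken from the sample titles. The authors made the deposited intensity values with GCRMA, per the submitters' processing notes, at 1 value per probe set. The linear scale was read from the values. The GCRMA settings and any rescaling afterwards are not given in the sources used here. The number of arrays limits the precision.

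Genes came from the platform annotation, in which 20380 probe sets had 1 gene, 691 several and 1555 none. All 7 genes matched the RefSeq table (GRCm38.p6) by gene identifier. The 64 control probe sets were left out of counts. The main probe set of a gene has the highest mean intensity over the arrays. Related genes were named when past 2-fold between 2 arrays, at most 6 per list. The 5 most alike genes were sought among genes with a range of at least 1 (log2). Thra and the genes below the floor were named after their values were seen.

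The additive fit used limma 3.58.1 in R 4.3.3 (lmFit, eBayes with trend, Benjamini-Hochberg) on unfloored log2 values of 8062 probe sets. It was also run on simulated data with the same noise spread for every probe set and the same banding response in both genotypes. Those settings differ from the data, so that run does not show how well the fit works here. Lists, alternatives and members were chosen with earlier results of these data known.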

Additional observations from a re-analysis of the deposited data

Results flagged for a closer look

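Purb moved in opposite directions with banding in the genotypes, both past 2-fold. Its main probe set had 250.9 in IL-18 null banded and 621.7 in IL-18 null sham, a difference of -1.31 (log2), and 654.8 in wild-type banded and 266.2 in wild-type sham, a difference of 1.30. With 1 array per group this difference between genotypes was not tested.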

How the results depend on the processing

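No myosin difference past 2-fold changed sign or fell below 2-fold under the floors at log2 5 and 7, no floor, quantile normalization, cyclic loess or median centring. Of 288 values of measured myosin differences of any size under these settings, 282 kept their side of 2-fold. The other 6 passed it newly, all of Myl7 and Myl4. The floor settings could change only the second Myh6 probe set, since the other measured myosin probe sets exceeded log2 7 on all arrays. For those others the floor settings repeat the main value, so part of the 282 was fixed in advance. The count of myosin probe sets higher with banding in wild type, 5, became 3 with 1 main probe set per gene and 3 with the mean of a gene's probe sets. Among banded arrays the count lower in IL-18 null, 1, was 2 after quantile normalization, 3 after cyclic loess, 2 after median centring, 3 at a 1.5-fold threshold and 0 with main probe sets. The count higher in IL-18 null among sham arrays, 3, was 1 with gene means. The 4 probe sets with a smaller banding response in IL-18 null became 2 with main probe sets and 2 with gene means.

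In the additive fit 0 myosin probe sets were called for banding. It called 2 after quantile normalization (Mybpc3 and Myl3 1428266_at, limma's adjusted p 0.0013 and 0.028) and 3 with no filter on low values (these and Myh7). For genotype it called 0, and 1 with no filter (Myh6 1417729_at). The cause was not tested. No array could be left out, since each group has 1 and the fit would keep no residual degree of freedom. No paired analysis was possible because each group has 1 array and the labels give no replicate numbers.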
